A study of Homo sapiens with 12 samples.

Results

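The effect of acadesine given alone was examined in 6 of the 12 JEKO-1 tumors of the series, 3 from acadesine-treated mice and 3 from control mice, chosen by their sample titles. JEKO-1 is a human cell line established from a mantle cell lymphoma (MCL), a B cell lymphoma with high cyclin D1. The acadesine group received 400 mg/kg acadesine, on 5 days a week by the study's methods and daily by the sample labels. The control group received vehicle. In all groups the cells grew under the skin of female CB17-SCID mice aged 6 to 8 weeks. These mice lack working B and T cells but keep other immune cells. Treatment began once tumors were palpable and ran for 18 days, and tumors were then taken. The study selected 3 representative tumors from cohorts of 6 mice, so every group holds 1 cell line and a chosen part of its mice. The other 6 tumors, from mice given rituximab, an antibody against CD20, at 10 mg/kg weekly, with (combination) or without the same dose of acadesine, are used below for comparison.

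Acadesine (AICAR) is a nucleoside that enters cells through nucleoside transporters and is phosphorylated by adenosine kinase to ZMP. ZMP is an intermediate of purine synthesis that resembles AMP and activates AMP-activated protein kinase (AMPK), a sensor of low cellular energy. AMPK is made of a catalytic alpha, a scaffolding beta and a nucleotide-binding gamma subunit, and when active it restrains lipid and protein synthesis and favors fuel oxidation. It acts mainly by phosphorylation, which RNA arrays do not measure.

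RNA of each tumor was read on 1 Affymetrix HT HG-U219 array, and values are log2 RMA levels, so that a difference of 1 is a doubling of the signal. The arrays' medians lay between 4.59 and 4.66, and all pairs of the 12 arrays correlated at 0.989 or above. Each of 18239 genes was represented by the probe set with the highest mean, and levels below 5 are called dim here. The B cell and MCL markers, measured for 13 of the 14 listed, had a mean level of 8.94, 8.82 and 8.90 in acadesine-treated tumors and 8.83, 8.84 and 9.001 in control tumors. CCND1 (cyclin D1) read from 11.98 to 12.22 in acadesine-treated and from 12.11 to 12.38 in control tumors, and MS4A1, which encodes CD20, from 12.12 to 12.28 in acadesine-treated and from 12.14 to 12.22 in control tumors. The samples thus carried the markers of their label in both groups. Probes for human transcripts can also bind similar mouse RNA, and in bulk tumors fewer cells of a type and less RNA per cell cannot be told apart.

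No gene passed the test for acadesine against control. With limma and Benjamini-Hochberg adjustment over all genes, 0 of 18239 (0%) had an adjusted p under 0.05, and the smallest adjusted p was 0.5475. At an unadjusted p under 0.05, 733 genes were higher in acadesine-treated tumors (4.02% of all genes) and 690 were lower (3.78%). Together these are 1423 genes. The 3 acadesine-treated tumors all lay above the 3 control tumors for 1260 genes (6.91%) and all below for 1086 (5.95%), and 42 of the first and 47 of the second differed by more than 1.4-fold. The standard error of a gene's log2 fold change was 0.135 in the median. Over the 9481 genes at level 5 or more, the root mean square difference between 2 tumors was 0.25 to 0.30 within the acadesine group, 0.26 to 0.31 within the control group and 0.24 to 0.34 between the groups. Of the 9 pairs between the groups, 4 lay above the largest distance within a group, 3 of them with acadesine tumor 2. The genes below are described with their values under that limit, and none of them is a called change. All gene lists below were written with earlier results of these data known, and some lists share members.

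Among genes whose tumors did not overlap, the 10 lowest p values on the lower side included several regulators of lymphocytes. MAP3K1, a kinase upstream of JNK and ERK, had levels of 11.28, 11.11 and 11.36 in acadesine-treated tumors and 11.54, 11.78 and 11.67 in control tumors, a log2 fold change of -0.41 (SE 0.08, limma adjusted p = 0.5475). The other probe set of MAP3K1, also bright, read -0.12 with overlapping groups. TCF4, an E protein transcription factor of B cells and plasmacytoid dendritic cells, had 11.86, 11.76 and 11.81 in acadesine-treated tumors and 12.08, 12.09 and 12.12 in control tumors (-0.29, SE 0.07). ETS1, a transcription factor of lymphoid cells, had 11.85, 11.78 and 11.89 in acadesine-treated tumors, against 12.16, 12.15 and 12.07 in control tumors (-0.29, SE 0.07). In TCF4 and ETS1 the gap between the groups exceeded the spread within either group, and in MAP3K1 the gap was narrower than that spread. TCF4 was also lower by all 11 of its probe sets, 6 of them at an unadjusted p under 0.05.

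Larger differences came from genes of middle level. CCR7, the chemokine receptor that guides lymphocytes into lymph nodes, had 7.38, 7.23 and 6.89 in acadesine-treated tumors and 7.54, 8.17 and 8.03 in control tumors (-0.74, SE 0.18). SCD5, a stearoyl-CoA desaturase that puts double bonds into fatty acids, had 5.81, 5.64 and 6.35 in acadesine-treated tumors, against 6.63, 6.75 and 6.64 in control tumors (-0.74, SE 0.18). Its other, dimmer probe sets read between -0.10 and 0.04. KLF9, a Krüppel-like transcription factor, had 7.38, 7.42 and 7.19 in acadesine-treated tumors, against 7.81, 8.18 and 7.84 in control tumors (-0.61, SE 0.14), although 1 of its 4 probe sets was higher at an unadjusted p under 0.05. In CCR7 acadesine tumor 3 was lowest and control tumor 1 close to the acadesine group, while in SCD5 the spread lay in the acadesine group. MYC, the proliferation-linked transcription factor, had 12.59, 12.24 and 12.59 in acadesine-treated tumors and 12.82, 13.04 and 12.68 in control tumors (-0.37, SE 0.09, 1 probe set), with the highest acadesine-treated and the lowest control tumor close together. SEL1L3 was lower by 0.35 in its brightest probe set, and its probe set of largest variance read 0.17 in the other direction. The small nucleolar RNA SNORA20 (-0.55) and the claudin gene CLDN20 (-0.46) completed the 10, both dim in every tumor.

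On the higher side, 2 of the 10 leading genes were well above the dim range. FCRL2, an Fc receptor-like protein of B cells, had 9.32, 9.48 and 8.90 in acadesine-treated tumors and 8.66, 8.55 and 8.52 in control tumors (0.66, SE 0.15), and 10 of its 11 probe sets were higher, 7 of them at an unadjusted p under 0.05. CNIH4, a cornichon protein that loads cargo at the endoplasmic reticulum, had 9.72, 9.82 and 9.63 in acadesine-treated tumors, against 9.30, 9.30 and 9.34 in control tumors (0.41, SE 0.09), but its second probe set read -0.09. FCRL2 is thus the higher gene backed by the most probe sets, and CNIH4 rests on 1. The other 8 had group means near or below 5: ZNF438, a zinc finger gene (0.72), ACSM3, a mitochondrial acyl-CoA synthetase (0.62), KIRREL3-AS3, an antisense RNA (0.58), CHST5, a sulfotransferase (0.54), IL19, a cytokine of the IL-10 family (0.53), OSTCP1, a pseudogene (0.49), PTGFRN (0.48) and PIRT (0.43). At such levels part of the signal is background, so these differences are those of the probe sets.

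**Figure D1:**
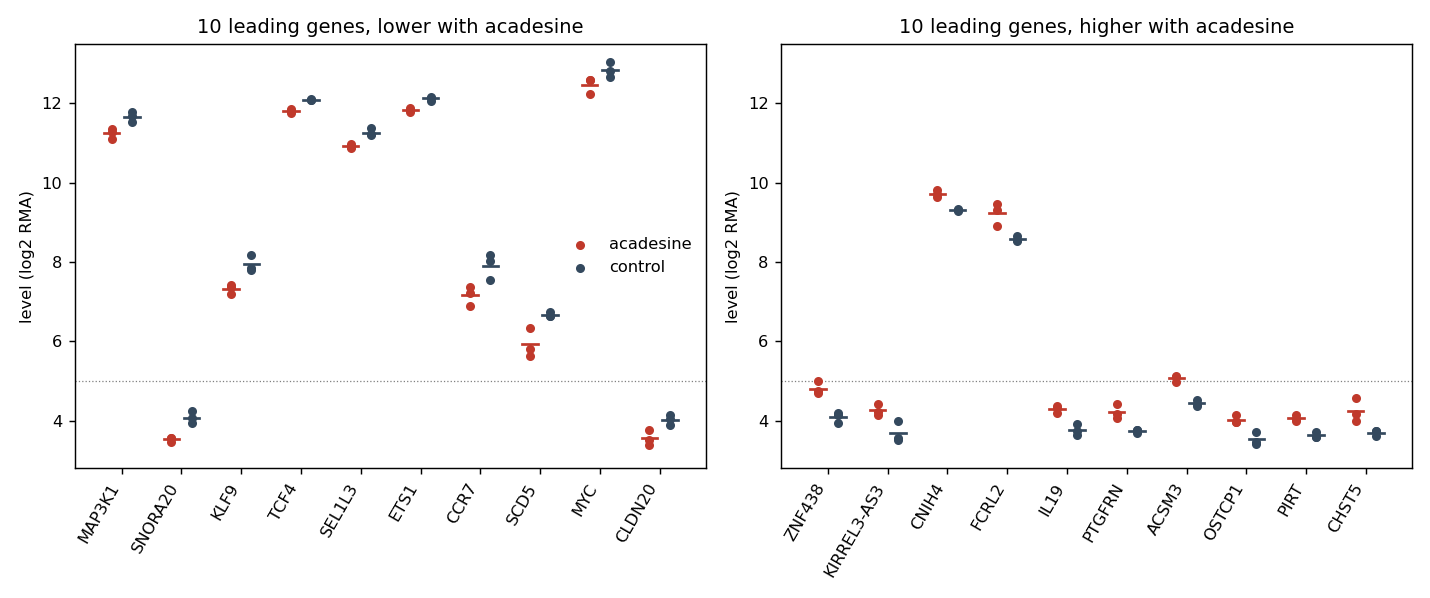
Log2 RMA level of the 10 leading genes lower (left) and higher (right) in acadesine-treated tumors. Points are tumors (3 per group), short lines are group means and the dotted line marks level 5. For every gene the acadesine-treated and control tumors do not overlap, which the choice of genes fixed, and 8 of the 10 higher genes lie near or below level 5.

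By size alone, the largest differences without overlap were WNT10B, a Wnt ligand, and on the lower side CCR7, SCD5, CILK1, GLRA3 and EPCAM. WNT10B had 5.65, 5.40 and 5.22 in acadesine-treated tumors and 4.58, 4.76 and 4.76 in control tumors (0.72, SE 0.20). It was read by 1 probe set and was dim in every control tumor. Of 69 measured Wnt pathway genes 2 were higher (2.9%, against 4.02% of all genes) and 2 were lower (2.9%, against 3.78%) at an unadjusted p under 0.05. Their median was -0.03. The cell adhesion gene EPCAM had 5.39, 5.46 and 5.27 in acadesine-treated tumors and 6.34, 5.73 and 6.22 in control tumors (-0.72, SE 0.21). Its other probe sets read -0.30 and -0.05. CILK1, a kinase of the primary cilium, had 7.16, 6.71 and 7.33 in acadesine-treated tumors, against 7.89, 7.79 and 7.72 in control tumors (-0.73, SE 0.19), and GLRA3, a glycine receptor subunit, was near level 5 (-0.73). ZNF335, a zinc finger gene, was higher by 0.61. No difference without overlap went past these sizes, which lie between -0.74 and 0.72.

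Genes were also picked by the second smallest p over their probe sets in a direction. That 2 or more probe sets of these genes had a low p was thus fixed by the choice. Probe sets of a gene also read the same RNA of the same tumors. TCF12, another E protein, was lower by all 11 of its probe sets, 5 of them at an unadjusted p under 0.05, with levels of 10.37, 10.43 and 10.55 in acadesine-treated tumors and 10.88, 10.85 and 10.58 in control tumors. SWAP70, a B cell protein that binds actin, was lower in all 4 probe sets at that threshold (-0.32), HNRNPH3, a splicing factor, in all 3 (-0.32), ZFP36L2, which marks mRNAs for decay, in 3 of 4 (-0.43), and MARCKS, which links the membrane to actin, in both (-0.47). On the higher side the same rule gave USP19, a deubiquitinase (3 of 4 probe sets, 0.14 in the brightest), the pseudogene MT1DP (2 of 3), FMNL1, a formin (2 of 16), and ACP2, a lysosomal phosphatase. ACP2 depended on the probe set: the brightest of its 9 probe sets read -0.09 while 4 others were higher at an unadjusted p under 0.05, by 0.32 to 0.44. For both E proteins, TCF4 and TCF12, every probe set had the same sign, a likeness noticed after the values were seen.

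Across genes, the direction of the difference went with the level and the length of the gene. Genes higher at an unadjusted p under 0.05 had a median level of 4.66, those lower one of 7.95, and all genes one of 5.26. The share of genes lower at that threshold was 2.31% below level 4, 4.56% between levels 7 and 9 and 8.99% at level 11 and above, whereas the share higher stayed between 3.12% and 5.28%. Gene length, taken as the span of the gene in the RefSeq annotation, was then set against the fold change for the 9477 genes at level 5 or more that had one, cut into 4 length groups of equal size. In the shortest group (median 6.18 kb) 6.84% were higher and 3.00% lower in acadesine-treated tumors, and in the longest group (median 121.1 kb) 1.27% were higher and 8.32% lower. The middle groups lay between, with 3.97% higher and 4.09% lower at a median of 19.5 kb, and 1.82% higher and 5.49% lower at 43.81 kb. The median log2 fold changes of the 4 groups ran 0.05, 0.02, -0.02 and -0.07 from short to long. The ordering of the ends held within each range of level, with 0.04 in the shortest and -0.07 in the longest group at levels 5 to 7, 0.08 and -0.06 at 7 to 9, 0.05 and -0.08 at 9 to 11, and 0.02 and -0.08 at 11 and above.

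The same contrast can be read in each tumor as the median deviation of the longest group from the gene means over the 12 arrays, less that of the shortest group. It was -0.08, -0.07 and -0.07 in acadesine-treated tumors and 0.01, 0.07 and 0.03 in control tumors. In the other tumors it was 0.06, 0.04 and -0.02 with the combination and -0.01, 0.05 and 0.01 with rituximab. All 3 acadesine-treated tumors lay below the other 9 tumors. The group difference from control was -0.11, with a mean of -0.074 ± 0.004 in acadesine-treated and 0.037 ± 0.029 in control tumors (SD, n = 3 each). The pattern was noticed in these data, so it is given as a description with no p value. The combination against rituximab, where acadesine was also given, did not show it: its medians over the 4 length groups were 0.00, -0.02, -0.01 and 0.01.

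RNA integrity can be followed with the array's control probe sets at the 3′ and 5′ ends of 2 transcripts. The log2 signal at the 3′ end minus the 5′ end of GAPDH was 0.22, 0.19 and 0.24 in acadesine-treated tumors and 0.07, 0.36 and 0.30 in control tumors, and that of beta-actin was 2.22, 2.09 and 2.42 in acadesine-treated tumors and 2.06, 2.44 and 2.49 in control tumors. The acadesine values lay within the control range for both transcripts. The part of RNA handling in the length pattern was not tested further.

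**Figure D2:**
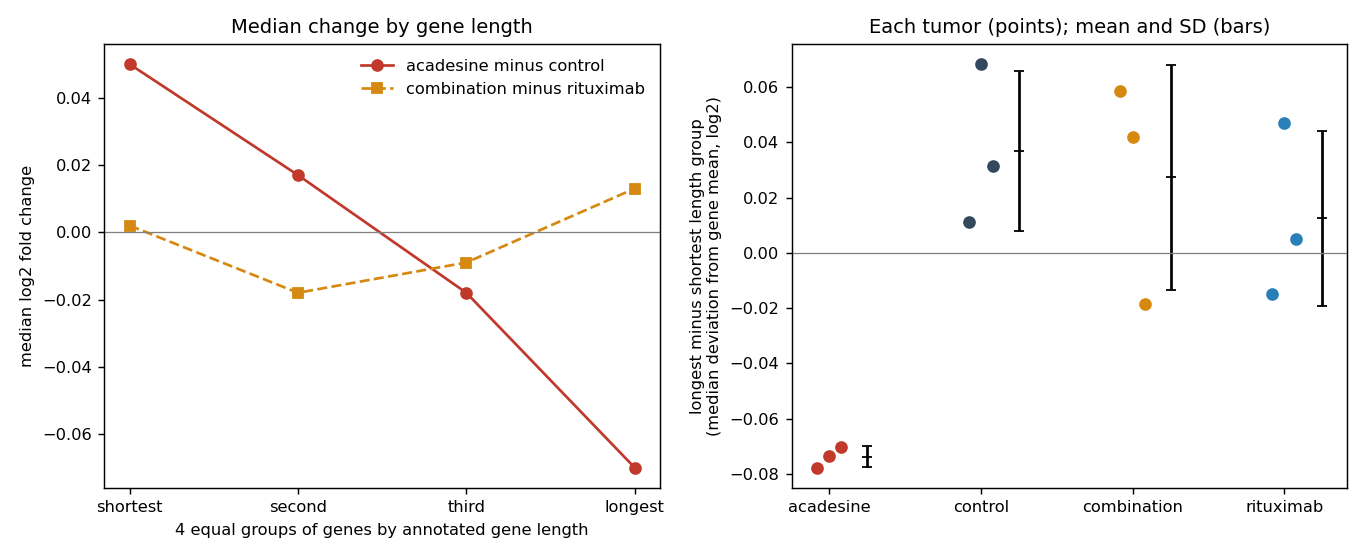
Left, median log2 fold change of genes at level 5 or more in 4 groups of gene length, for acadesine minus control (0.05 to -0.07 from short to long) and combination minus rituximab (near 0 throughout). Right, the difference between the longest and the shortest group in each tumor, with mean and SD of 3 tumors per group, where all 3 acadesine-treated tumors lie below the other 9.

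The genes that take up and convert acadesine differed by less than their standard errors for the 3 genes closest to the drug. ADK, the adenosine kinase that makes ZMP, had 9.40, 9.42 and 9.44 in acadesine-treated tumors and 9.34, 9.39 and 9.48 in control tumors (0.02, SE 0.09). ATIC, which consumes ZMP in purine synthesis, had 11.06, 11.21 and 11.04 in acadesine-treated tumors, against 11.17, 11.18 and 10.93 in control tumors (0.01, SE 0.08), and the nucleoside transporter SLC29A1 differed by 0.07 (SE 0.16). Groups overlapped for all 3 genes. Of 33 measured genes of uptake and purine metabolism, 1 was higher (3.03%, against 4.02% of all genes) and 2 were lower (6.06%, against 3.78%) at an unadjusted p under 0.05, shares near those of all genes. The higher one was the dim transporter SLC28A1 (0.40). The lower ones were PAICS, an enzyme of purine synthesis upstream of ZMP, at 11.25, 11.36 and 11.30 in acadesine-treated and 11.55, 11.56 and 11.38 in control tumors (-0.20, SE 0.08), and the nucleotidase NT5C2 (-0.19).

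The AMPK subunits went in both directions. Of 17 measured subunits and upstream kinases, 3 were higher (17.6%, against 4.02% of all genes) and 1 was lower (5.88%, against 3.78%) at an unadjusted p under 0.05, with a median of 0.06, which was 0.002 without control tumor 1. The count of 3 was 0 without acadesine tumor 3 or control tumor 2 and 1 without control tumor 1. PRKAA1, the catalytic alpha1 subunit, had 5.52, 5.51 and 5.75 in acadesine-treated tumors and 6.17, 5.90 and 5.99 in control tumors (-0.42, SE 0.17). The scaffold PRKAB1 had 7.96, 8.09 and 8.24 in acadesine-treated tumors, against 7.76, 7.66 and 7.95 in control tumors (0.31, SE 0.13), and the regulatory PRKAG1 had 9.96, 9.82 and 9.89 in acadesine-treated tumors, against 9.80, 9.44 and 9.75 in control tumors (0.23, SE 0.10). None of these 3 overlapped between groups. The same was true of 514 of the 733 higher and 479 of the 690 lower genes at an unadjusted p under 0.05. The sign held in 4 of 4 probe sets of PRKAA1, 2 of 3 of PRKAB1 and 3 of 3 of PRKAG1. The other subunits PRKAA2 (-0.07), PRKAB2 (0.06) and PRKAG2 (-0.11) and the upstream kinases STK11 (0.20) and CAMKK2 (0.16) had overlapping groups.

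Of 36 measured AMPK substrates and energy-response genes, 2 were higher (5.56%, against 4.02% of all genes) and 0 were lower at that threshold, both of the higher ones transcription factors of energy metabolism. Without acadesine tumor 2 or control tumor 1 there was 1. ESRRA, the nuclear receptor that drives mitochondrial genes, had 8.49, 8.49 and 8.44 in acadesine-treated tumors and 8.08, 7.92 and 8.22 in control tumors (0.40, SE 0.11), although the sign held in only 1 of its 2 probe sets. TFE3, a lysosomal regulator, was dim (0.43). TXNIP, which limits glucose uptake and is a target of AMPK, had 11.24, 10.91 and 10.83 in acadesine-treated tumors, against 11.37, 11.12 and 11.02 in control tumors (-0.17, SE 0.13), with groups that overlapped. In the combination against rituximab TXNIP fell by 0.72 (limma adjusted p = 0.0031).

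Oxidative phosphorylation genes lay mostly above 0. Of 74 measured subunits of the respiratory chain, 60 were above 0 with a median of 0.06, against a median of 0.01 over all genes, and 7 (9.46%, against 4.02% of all genes) were higher and 0 (against 3.78%) were lower at an unadjusted p under 0.05. NDUFA9 of complex I had 11.29, 11.26 and 11.27 in acadesine-treated tumors and 11.08, 10.97 and 11.12 in control tumors (0.22, SE 0.07), and COX5A of complex IV had 12.47, 12.45 and 12.33 in acadesine-treated tumors, against 12.37, 12.20 and 12.25 in control tumors (0.15, SE 0.06). The differences are small. In NDUFA9 the groups did not overlap, but the gap between them was narrower than the spread of the control tumors. The count of 7 was 3 without acadesine tumor 1, 3 without acadesine tumor 2 and 2 without control tumor 2. The members are short genes, with a median span of 10.6 kb against 29.5 kb over the genes at level 5 or more, and the part of length in their difference was not tested. In the combination against rituximab their median was -0.095, and NDUFA9 (-0.18) and COX5A (-0.15) lay below 0.

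Actin cytoskeleton genes lay mostly below 0, in a list written, like the others, with earlier results of these tumors known. Of 67 measured, 10 (14.9%, against 3.78% of all genes) were lower and 1 (1.49%, against 4.02%) was higher at an unadjusted p under 0.05, with a median of -0.06. Of the 67, 60 had a level of 5 or more, where 3.48% to 8.99% of all genes were lower, by level. ITGB1, the beta1 integrin that ties cells to matrix, had 12.05, 11.79 and 12.04 in acadesine-treated tumors and 12.21, 12.22 and 12.30 in control tumors (-0.28, SE 0.08), and all 5 of its probe sets were lower. DOCK2, the exchange factor for Rac in lymphocytes, had 9.95, 10.08 and 9.92 in acadesine-treated tumors, against 10.13, 10.22 and 10.32 in control tumors (-0.24, SE 0.09), and EPB41, which anchors actin to the membrane, was lower by 0.33. Neither ITGB1 nor DOCK2 overlapped between the groups, as was the case for 479 of all 690 genes lower at that threshold. Leaving out acadesine tumor 2 gave 6 lower genes, and leaving out any other single tumor gave 7 to 11. These are long genes, with a median span of 52.8 kb, and the part of length here was not tested either.

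For genes of B cell signaling and survival, the members with the smallest p values are described. TNFAIP3 (A20), the inhibitor of NF-κB signaling, had 7.98, 7.98 and 7.96 in acadesine-treated tumors and 8.44, 8.40 and 8.43 in control tumors (-0.45, SE 0.13), and the tumors of each group lay close together. BIRC2 (cIAP1), another regulator of that pathway, was lower by 0.14, and of 38 measured NF-κB genes 2 were lower (5.26%, against 3.78% of all genes) and 1 was higher (2.63%, against 4.02%) at an unadjusted p under 0.05, near the shares of all genes. BCL2, the anti-apoptotic protein, had 8.76, 8.71 and 8.87 in acadesine-treated tumors, against 9.10, 9.13 and 8.96 in control tumors (-0.29, SE 0.10), but only 3 of its 6 probe sets were lower. Among the 43 measured genes of B cell receptor signaling 4 were lower (9.30%) and 1 was higher (2.33%). Of these 43, 41 had a level of 5 or more, where 3.48% to 8.99% of all genes were lower, by level. Of 34 chemokine and homing genes 4 were lower (11.8%), CCR7 first, and 2 were higher (5.88%). With single tumors left out, the counts of lower genes ran from 1 to 6 for NF-κB, 2 to 5 for B cell receptor signaling and 4 to 6 for homing. MAP3K20, a stress-activated kinase of the MAP kinase family, was lower by 0.47 with 7 of 8 probe sets.

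Lists of transcription factors and their targets held a few lower members. Of 17 Krüppel-like factors 4 were lower (23.5%, against 3.78% of all genes) and 1 was higher (5.88%, against 4.02%). The lower ones included KLF9 and the TGF-beta-induced repressors KLF10 (-0.42) and KLF11 (-0.43). The count of lower genes was 1 without acadesine tumor 1 or control tumor 2 and 2 without acadesine tumor 3. Of 27 FOXO factors and targets 5 were lower (18.5%) and 0 higher, with a median of -0.15. KLF9 and CCR7, counted above in other lists, are among these lower genes. Of the 27, 24 had a level of 5 or more, where 3.48% to 8.99% of all genes were lower, by level. FOXO3 itself had 6.46, 6.29 and 6.84 in acadesine-treated tumors and 6.93, 7.32 and 6.70 in control tumors (-0.45, SE 0.18). The FOXO3 groups overlapped, and without acadesine tumor 2 the list gave 2 lower genes and a median of -0.03, against 9 lower genes without acadesine tumor 3 and 3 without control tumor 1. MXD1, the MAX partner that opposes MYC, had 6.19, 5.33 and 6.01 in acadesine-treated tumors, against 6.46, 7.48 and 6.005 in control tumors (-0.81, SE 0.27), a difference carried by acadesine tumor 2 and control tumor 2. BACH1, the heme-sensing repressor of antioxidant genes, had 8.81, 8.52 and 8.64 in acadesine-treated tumors, against 9.10, 9.44 and 8.87 in control tumors (-0.48, SE 0.13), and SRXN1, a sulfiredoxin of the antioxidant response, had 7.13, 7.35 and 7.47 in acadesine-treated tumors, against 6.88, 6.86 and 6.99 in control tumors (0.41, SE 0.17). Of 28 antioxidant genes 2 were lower (7.14%), with NFE2L3 (-0.41) beside BACH1, and 1 was higher (3.57%).

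Among cell cycle genes, a few mitosis genes were lower and DNA replication genes lay near the shares of all genes. Of 52 measured mitosis genes 5 were lower (9.62%, against 3.78% of all genes) and 0 were higher at an unadjusted p under 0.05, among them NUSAP1, a spindle protein (10.38, 9.97 and 10.47 in acadesine-treated and 10.71, 10.75 and 10.37 in control tumors), CCNA2, cyclin A2 (-0.31), and NUF2 of the kinetochore (-0.35). In NUSAP1 only acadesine tumor 2 lay below all control tumors. Without acadesine tumor 2 or control tumor 2 there were 0 lower mitosis genes, and without control tumor 1 there was 1. All 52 mitosis genes had a level of 5 or more. There the share of all genes that was lower ran from 3.48% at levels 5 to 7 to 8.99% at 11 and above. Of 49 DNA replication genes 2 were higher (4.08%, against 4.02% of all genes) and 1 was lower (2.04%, against 3.78%), with 0 to 4 higher when single tumors were left out. The S phase gene MCM3 had 11.10, 11.31 and 11.11 in acadesine-treated tumors, against 10.94, 10.94 and 11.08 in control tumors (0.18, SE 0.09). E2F2, which drives S phase entry, was higher by 0.37. HIF1A, the hypoxia factor (-0.24), LDHB, a lactate dehydrogenase (-0.16), and HSPD1, a mitochondrial chaperonin (-0.24), were each lower. Of 37 genes of glycolysis and hypoxia 3 were lower (8.11%) and 1 was higher (2.70%), with 0 in either direction without acadesine tumor 2. Of these 37, 35 had a level of 5 or more. Neither p53 targets (0 of 28 in either direction) nor ATF4 targets (0 of 34) reached that threshold, and of 59 interferon-stimulated genes 1 was lower (1.69%) and 0 were higher.

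Metallothioneins, metal-binding proteins whose genes the zinc-sensing factor MTF1 induces, were lower in 2 of the 3 acadesine-treated tumors. MTF1 binds metal response elements, whose core is TGCACNC or TGCGCNC, and RefSeq (GRCh38.p14) promoters were therefore searched for these cores on both strands in the 250 bases before the start. A core was present in 24.7% of 27305 promoters and 4 or more in 0.366%. The table used held promoters of 5 of the 10 measured metallothioneins. MT1X held 4, MT2A 7, MT1H 8 and MT1B and MT4 3 each, and the zinc exporter gene SLC30A1, also an MTF1 target, held 1. The last 200 bases before the start are shown for 2 metallothioneins and SLC30A1, because their levels are described next, with cores of either strand in capitals.
MT1X, chr16:56682270-56682469 (plus strand): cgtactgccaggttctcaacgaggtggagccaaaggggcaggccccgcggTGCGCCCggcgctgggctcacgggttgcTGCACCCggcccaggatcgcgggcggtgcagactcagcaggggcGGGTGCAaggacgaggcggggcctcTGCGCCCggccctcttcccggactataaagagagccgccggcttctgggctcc
MT2A, chr16:56608384-56608583 (plus strand): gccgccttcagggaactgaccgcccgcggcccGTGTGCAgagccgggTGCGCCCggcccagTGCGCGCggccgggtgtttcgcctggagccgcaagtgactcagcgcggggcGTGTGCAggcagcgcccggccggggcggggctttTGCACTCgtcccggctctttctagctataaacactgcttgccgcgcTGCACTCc
SLC30A1, chr1:211579162-211579361 (minus strand): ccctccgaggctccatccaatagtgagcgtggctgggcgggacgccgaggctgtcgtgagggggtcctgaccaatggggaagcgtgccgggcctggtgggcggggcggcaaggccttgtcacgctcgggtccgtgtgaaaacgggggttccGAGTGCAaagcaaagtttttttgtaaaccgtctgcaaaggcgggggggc

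MT1X had 7.59, 8.48 and 7.67 in acadesine-treated tumors and 8.79, 8.63 and 8.16 in control tumors (-0.62, SE 0.26). MT2A had 8.66, 9.62 and 8.61 in acadesine-treated tumors, against 9.64, 9.61 and 9.21 in control tumors (-0.52, SE 0.27), and MT1H, with the most cores of the 5 promoters searched, had 5.10, 7.04 and 5.15 in acadesine-treated tumors, against 6.71, 6.55 and 6.08 in control tumors (-0.68, SE 0.38). In each, acadesine tumors 1 and 3 were below all control tumors, and acadesine tumor 2 was within or above the control range. MT1G (-0.74) and MT1F (-0.39) followed the same order of tumors, and MT1E (-0.11), MT1B (-0.18) and MT1M (0.02) were dim or differed little. The brain metallothionein MT3 (0.29) and the epithelial MT4 (-0.38) were dim as well, and MT4 was the only one whose groups did not overlap. Of 10 measured members 4 were lower (40%, against 3.78% of all genes) and 0 higher at an unadjusted p under 0.05, with a median of -0.39. The count was 0 without acadesine tumor 1, 6 without acadesine tumor 2, 1 without acadesine tumor 3, control tumor 1 or control tumor 2, and 5 without control tumor 3. Metallothionein transcripts are nearly identical in sequence, so the array may not separate one from another and their counts are not independent.

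SLC30A1, with a single core, had 7.62, 8.28 and 8.41 in acadesine-treated tumors and 8.78, 9.31 and 8.04 in control tumors (-0.61, SE 0.25), so its order of tumors was another one than that of the metallothioneins. Its other probe set, near level 5, read 4.73, 4.62 and 5.02 in acadesine-treated tumors. In control tumors that probe set read 5.385, 6.18 and 5.48, without overlap (-0.89, SE 0.20). Of 25 zinc transporters SLC30A1 was the only one lower at an unadjusted p under 0.05 (4%, near the 3.78% of all genes), and 0 were higher. In the combination against rituximab, separate tumors, MT1G (-1.57, limma adjusted p = 0.014), MT2A (-1.23, 0.015), MT1X (-0.98, 0.04), MT1H (-1.62, 0.026) and MT1F (-0.75, 0.017) all fell, and SLC30A1 differed by 0.02.

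**Figure D3:**
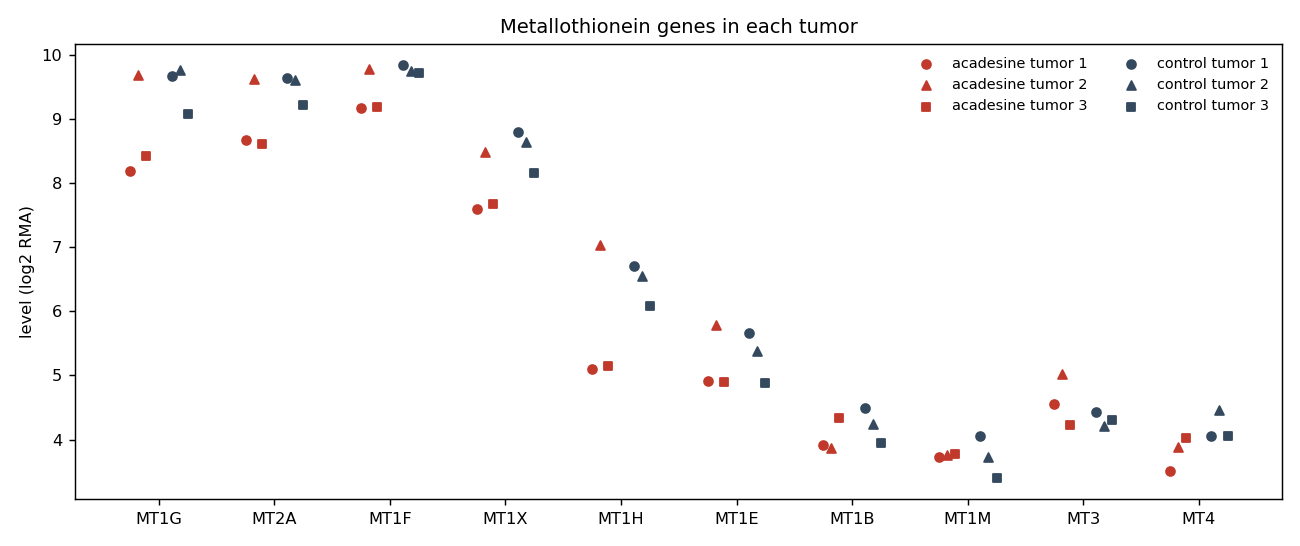
Log2 RMA level of the 10 measured metallothionein genes in the 3 acadesine-treated and the 3 control tumors, 1 symbol per tumor number. In MT1G, MT2A, MT1X and MT1H acadesine tumors 1 and 3 lie below all control tumors, while acadesine tumor 2 lies near or above the control level.

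The combination against rituximab asks for the effect of acadesine in tumors that shared none of these 6 animals, on top of rituximab. There 515 genes (2.82%) passed an adjusted p of 0.05. Of the 733 genes higher with acadesine alone at an unadjusted p under 0.05, 54.8% had the same sign there, and of the 690 lower 57.0%, against 52.9% of all genes. The log2 fold changes of the comparisons correlated at 0.102 across genes, which are not independent replicates. SEL1L3 had 10.97, 10.89 and 10.90 in acadesine-treated and 11.22, 11.39 and 11.19 in control tumors, and 10.70, 10.62 and 10.79 in combination-treated and 11.06, 11.33 and 11.17 in rituximab-treated tumors (-0.35 and -0.48, limma adjusted p = 0.0021 in the second comparison). EPCAM differed by -0.72 and -0.87 (limma adjusted p = 0.029 in the second), but its other probe sets read -0.30 and -0.05 in acadesine against control. ZNF438 (0.72 and 0.55) and ACSM3 (0.62 and 0.56) were higher in both, with limma adjusted p of 0.061 and 0.054 in the second. The second probe set of ACSM3 read -0.09 in acadesine against control. These 4 genes were picked after their values were seen, among genes with the same sign and an unadjusted p under 0.05 in both comparisons. That their differences lay on the same side in both sets was thus fixed by the choice.

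Among other genes picked after their values were seen, IL5RA, a cytokine receptor chain, had 6.31, 5.61 and 5.97 in acadesine-treated and 6.49, 6.57 and 6.35 in control tumors, and 5.29, 5.13 and 5.12 in combination-treated and 6.02, 5.999 and 6.02 in rituximab-treated tumors (-0.50 and -0.84). IRF8, a transcription factor of B and myeloid cells, differed by -0.25 and -0.50, CD44, a hyaluronan receptor, by -0.37 and -0.56, and the dim CSF3R, the G-CSF receptor, by 0.47 and 0.53. IL5RA, IRF8 and CD44 fell in the second comparison (limma adjusted p = 0.012, 0.0032 and 0.028). Of the 10 leading lower genes, 6 were also below 0 in the second comparison, among them CCR7 (-0.27), KLF9 (-0.24) and ETS1 (-0.19), but SEL1L3 was the only one of them past an adjusted p of 0.05. Of the 10 leading higher genes, 4 were also above 0 there, 0 of them past it. GLRA3 read -0.62 there. MAP3K1 (0.02), TCF4 (0.01), MYC (0.12), CILK1 (0.05), WNT10B (-0.06) and FCRL2 (-0.30) were near 0 or of the other sign there, none past an adjusted p of 0.05. A test of whether the acadesine difference was another on top of rituximab (the interaction) called 51 genes (0.28%), SCD5 alone among the 20 leading genes. The count was 5 without acadesine tumor 1, 29 without acadesine tumor 2, 157 without acadesine tumor 3, 27 and 22 without control tumors 2 and 3, and 9 with no intensity trend. SCD5 lost its call when any of 8 of the 12 tumors was left out.

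**Figure D4:**
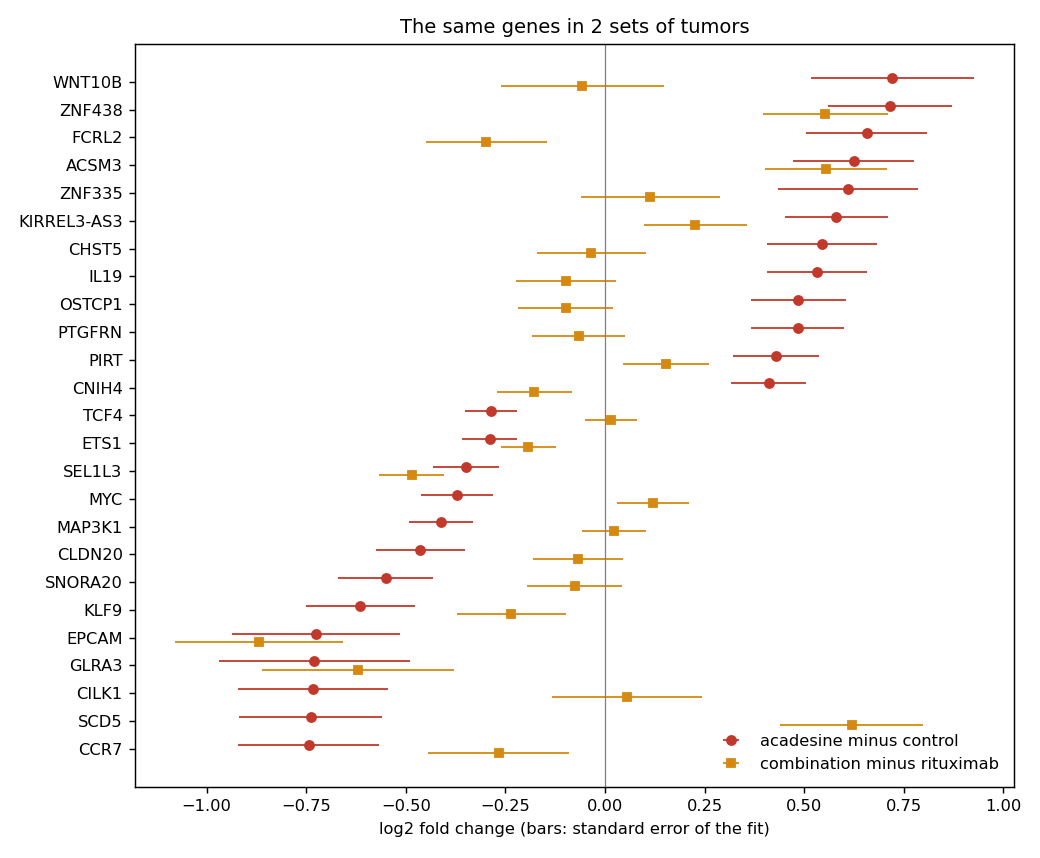
Log2 fold change and standard error of the 25 genes with the smallest p or the largest difference in acadesine against control (circles), beside the same genes in combination against rituximab (squares), which used other tumors. SEL1L3, EPCAM, ZNF438 and ACSM3, named in the text for that reason, lie on the same side in both, and SCD5 lies on opposite sides (-0.74 and 0.62).

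Markers of other cell types were mostly dim. The 35 measured skeletal muscle markers had a mean level of 4.50, 4.85 and 4.70 in acadesine-treated tumors and 4.51, 4.53 and 4.49 in control tumors, so acadesine tumors 2 and 3 stood above the rest, and 2 of the markers were higher (5.71%, against 4.02% of all genes) and 0 lower at an unadjusted p under 0.05. The 21 fibroblast markers had 4.24 to 4.40 in acadesine-treated and 4.21 to 4.48 in control tumors, and the 14 endothelial markers 4.72 to 4.83 in acadesine-treated and 4.69 to 4.75 in control tumors. The 17 macrophage and neutrophil markers had 4.35 to 4.43 in acadesine-treated and 4.26 to 4.31 in control tumors, which did not overlap. Only 3 of them reached level 5, and 2 were higher (11.8%) and 0 lower at that threshold. The 11 keratinocyte markers did not overlap either, at 4.52 to 4.585 in acadesine-treated and 4.46 to 4.50 in control tumors. Of all genes at levels 4 to 5, 5.28% were higher and 2.15% lower. Without acadesine tumor 2 the counts given above were smaller for oxidative phosphorylation (3), mitosis (0), actin (6), FOXO (2) and glycolysis and hypoxia (0). With the muscle level as a covariate in the fit the list medians were 0.065 for oxidative phosphorylation, -0.063 for mitosis, -0.075 for actin, -0.14 for FOXO and -0.037 for glycolysis and hypoxia, against 0.061, -0.057, -0.061, -0.15 and -0.038 without it. The part of muscle RNA in the counts was not tested. Among the lymphoid genes, VPREB3, a pre-B cell receptor component, had 9.60, 9.08 and 9.46 in acadesine-treated tumors, against 9.14, 8.79 and 9.05 in control tumors (0.39, SE 0.13), CD79B of the B cell receptor was higher by 0.15, and SOX4, a transcription factor of early lymphocytes, had 10.65, 10.84 and 10.84 in acadesine-treated tumors, against 10.88, 11.20 and 11.01 in control tumors (-0.25, SE 0.09). The MCL factor SOX11 had 8.18, 8.50 and 9.23 in acadesine-treated tumors, against 8.46, 9.44 and 8.56 in control tumors (-0.18, SE 0.26), with overlapping groups.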

How the data were processed

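The values are log2 RMA expression that the authors deposited, made with the BioConductor affy package from HT HG-U219 arrays: background correction, quantile normalization between arrays and summary per probe set. They ranged from 3.09 to 14.3. Of 49386 probe sets, 93 were controls, 45253 named 1 gene, 1327 several and 2713 none; the last 2 kinds were left out.

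Each gene was read by its brightest probe set on average, and 6417 genes had only 1. A limma 3.58.1 model in R 4.3.3 with an intensity trend was fitted to the 4 groups, so that they share 1 estimate of the spread, with Benjamini-Hochberg adjustment over 18239 genes at 0.05; it was tested on simulated data. P-values measure the spread between these tumors, 1 array each, and 3 per group limit the precision. Rank Products, the methods' test, was not run because its null resamples genes.

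The genes named were, in each direction, the 10 with the smallest p and the 5 largest differences among genes whose tumors do not overlap, the 5 best supported by a second probe set, from each list the 3 members lowest in p at most, and genes of the drug, AMPK and the lymphoma. The members and lists were chosen with earlier results of these data known. Alternatives were another probe set rule, filters, variance models, normalizations, the replicate number as a block and leaving out each tumor. Gene spans and promoters are from RefSeq. Some genes are not analysed here. Python 3.11.15 with pandas 2.3.3, numpy 2.4.6 and matplotlib 3.10.9 drew the figures.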

Additional observations from a re-analysis of the deposited data

Results flagged for a closer look

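The acadesine difference was another in the presence of rituximab for 2 of the genes named by rule, by the interaction term of the limma model over all genes. SCD5 had a log2 fold change of 1.36 more with rituximab than without it (limma adjusted p = 0.0202): it read 5.81, 5.64 and 6.35 in acadesine-treated and 6.63, 6.75 and 6.64 in control tumors, and 6.67, 6.56 and 6.85 in combination-treated and 6.13, 6.17 and 5.92 in rituximab-treated tumors. These values are of 1 of its 5 probe sets, the only one with an unadjusted p under 0.05 for acadesine against control. The interaction of SCD5 lay between 1.21 and 1.56 when any 1 of the 12 tumors was left out, with an adjusted p between 0.00222 and 0.0635, past 0.05 without any of the control tumors 2 and 3, acadesine tumors 1 and 2, rituximab tumors 2 and 3 or combination tumors 1 and 3. SLC39A10, a zinc importer, had an interaction of -0.68 (adjusted p = 0.0143): it read 11.25, 11.28 and 11.10 in acadesine-treated and 11.12, 10.97 and 11.11 in control tumors, and 10.97, 10.73 and 10.84 in combination-treated and 11.43, 11.41 and 11.32 in rituximab-treated tumors. The adjusted p of SLC39A10 was 0.0562 without acadesine tumor 1 and at most 0.0382 without any other tumor. Groups of 3 were too small for a check of single outlying tumors.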

How the results depend on the processing

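The count of genes at an adjusted p under 0.05 for acadesine against control was 0 under every alternative run, including every probe set tested. The count at an unadjusted p under 0.05 was 808 without genes under level 5 (fewer genes tested), 3512 with every probe set tested (more features), 1483 with the replicate block, and 987 to 1688 when 1 tumor was left out. Same-numbered acadesine and control tumors correlated at 0.151, 0.109 and -0.077 in their deviations, and pairs of unlike number at -0.239 to 0.117. With 3 tumors per group these values cannot decide whether the numbers pair the tumors. The block gave 0 genes for acadesine against control, as did the fit without it. It gave 532 against 515 for combination against rituximab and 68 against 51 for the interaction. Combination against rituximab gave 342 genes with the probe set of largest variance, 241 with no intensity trend, 915 with array weights and 157 with a muscle covariate. The interaction gave 9 genes with no intensity trend and 5 to 157 when 1 acadesine or control tumor was left out: 5, 29 and 157 without acadesine tumor 1, 2 or 3, and 27 and 22 without control tumor 2 or 3. The cause of these shifts was not tested. The length contrast was -0.14 with the probe set of largest variance and -0.12 to -0.10 when 1 tumor was left out, all chosen after seeing the data.

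Of 1532 pairs of a gene in the text and an alternative, 1499 kept direction and side of the threshold. The other 33 reversed, in 16 genes, none of them a called gene. Much of this agreement was fixed by construction. No gene was called for acadesine against control in any alternative, so the side of the threshold could not differ. Fits with no intensity trend or with robust variance leave the log2 fold changes unchanged. Leaving out 1 tumor cannot turn the sign of a gene whose tumors do not overlap. The count of 1499 is thus a weak guide to how stable the directions were. With the probe set of largest variance the reversed values were CNIH4 -0.09, SEL1L3 0.17, BCL2 0.18, ADK -0.36, SLC29A1 -0.19, PRKAB2 -0.082, PRKAG2 0.14 and CAMKK2 -0.044. MS4A1 was 0.005 with cyclic loess, and ATIC was -0.005 and MT1M -0.024 with the muscle covariate. When 1 tumor was left out, the values ran from -0.25 to 0.008 for ACP2, -0.014 to 0.055 for ADK, -0.068 to 0.054 for ATIC, -0.12 to 0.18 for SLC29A1, -0.28 to 0.055 for PRKAA2, -0.13 to 0.26 for PRKAB2, -0.074 to 0.43 for STK11, -0.48 to 0.13 for SOX11, -0.06 to 0.017 for MS4A1, -0.41 to 0.067 for MT1E and -0.14 to 0.19 for MT1M. Of 480 list medians under alternatives, 31 moved by more than the spread between tumors, in 14 lists. The 480 include medians of the fits with no intensity trend or robust variance, which could not move.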
